A study of Mus musculus with 6 samples.

Results

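Stretches of the mouse genome that were called lamina-associated after RNAi against lamin A, and in neither of the other maps, were examined where they extended or joined lamina-associated domains (LADs) that another map also held. They were chosen by the deposited LAD lists: the LADs of both other maps, LmnC RNAi and LmnB1 RNAi, were subtracted from those of the LmnA RNAi map on the 19 autosomes. Stretches of at least 50 kb were kept if their parent LAD touched a LAD of at least 1 of the other maps. This left 532 stretches (99.6 Mb) in 436 parent LADs, of 1680 autosomal LADs in the LmnA RNAi map, 1464 of which overlapped a LAD of another map. An extension, or edge, shares an end with its parent LAD, and there were 382 of these. A bridge lies inside its parent and joins stretches that were LADs elsewhere, and there were 150. The LAD lists rest on the same log2 ratios that are given below, so the ratios of these stretches in the 3 maps describe the selection and were not tested.

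Lamins are intermediate filament proteins that line the inner nuclear membrane. Lamins A and C are made from the gene Lmna by alternative splicing, and lamin B1 from Lmnb1. LADs are long, mostly gene-poor and weakly transcribed stretches of chromatin that touch this layer, and their borders are often sharp. In DamID the bacterial adenine methyltransferase Dam, joined to a lamin, marks GATC sites near the lamina, and Dam alone gives the background for accessible chromatin.

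The study mapped LADs in mouse embryonic fibroblasts (MEFs) of the C57BL/6 strain, wild type in genotype, to see where chromatin meets the lamina when 1 lamin isotype is depleted. In every group the cells carried a lentiviral shRNA, were selected with puromycin and then received a lentivirus for Dam alone or a Dam fusion. The 3 groups of maps were LmnA RNAi with Dam-LmnB1, LmnC RNAi with Dam-LmnB1, and LmnB1 RNAi with Dam-LmnA. Each map came from 1 Dam-only and 1 fusion library (6 libraries in all). No map of cells that lacked an shRNA was analysed here. No test across replicates was possible and no p-value is given, so each difference is one between these maps. In the LmnB1 RNAi map both the target and the fusion differ from the other maps, so these cannot be told apart. The description label gives LmnB1 as a target, while the labels' treatment protocol speaks of LmnA and LmnC shRNA only. RNA and protein were not measured in these files, so depletion of the lamins could not be checked, and neither could markers of the cell type.

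Values are log2 of fusion over Dam-only reads for each fragment between GATC sites, averaged over a stretch with weights by fragment length. An error given as ± is the standard error (SE) over the fragments of the stretch. It covers the spread within 1 pair of libraries and not the spread between cultures. Fragments read in only 1 library of a pair take extreme values on this scale, so means without them are given where they change a statement. In the 532 stretches the LmnA RNAi map had more fragments read in the fusion library alone (14.4%) than in the Dam-only library alone (7.51%). The LmnC RNAi map (6.98% against 15.7%) and the LmnB1 RNAi map (8.51% against 13.4%) had the opposite. Over all autosomal fragments the same shares were 16.8% and 8.34% with LmnA RNAi, 12.9% and 12.1% with LmnC RNAi, and 14.0% and 10.3% with LmnB1 RNAi. The part of this difference between library pairs in the results below was not tested. The read totals of the libraries cannot be read from deposited ratios and are unknown. Coordinates are in the mm9 build, and no genes are named because no annotation of that build was used here.

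Most of the stretches were short, and a few reached the size of a whole LAD. Their median length was 122 kb (interquartile range 78.8 to 220.05 kb, from 50.03 to 1856 kb). In all, 194 were shorter than 100 kb, 34 were at least 500 kb and held 23.8 Mb, and 3 exceeded 1 Mb, all of them edges. Edges made up 71.8% of the stretches (71.8 Mb, median 121 kb) and bridges 28.2% (27.9 Mb, median 128 kb). The exact binomial 95% interval of the bridge share was 24.4% to 32.2%, which covers the number of stretches only. Of the edges, 204 lay at the left and 178 at the right end of the parent (53.4% left, exact interval 48.3% to 58.5%). GATC fragments covered a median of 99.3% of a stretch, and 6 stretches (1.81 Mb) were covered over less than 90%. A stretch held between 94 and 4548 fragments, with a median of 299.

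**Figure D1:**
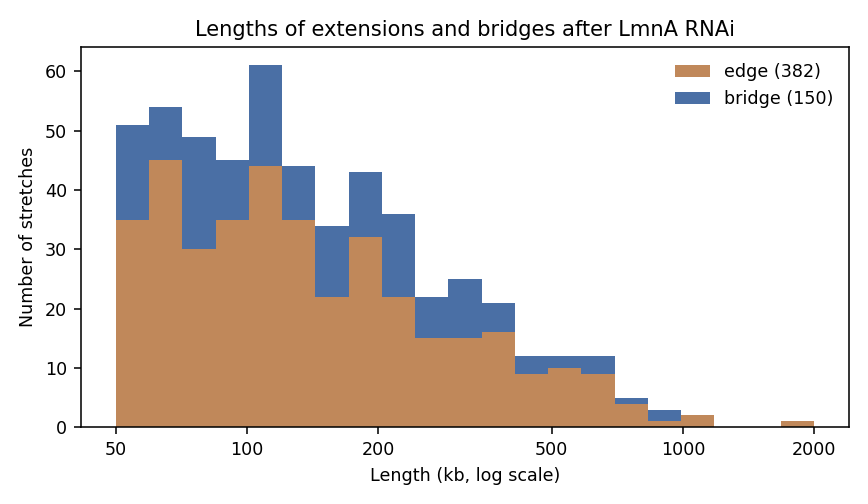
Number of stretches (vertical axis) by length in kb (horizontal axis, log scale), with edges and bridges stacked. Most of the 382 edges and 150 bridges lie between 50 and 500 kb, and the 3 longer than 1000 kb are edges.

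The length limit of 50 kb fell within a run of similar stretches. The 3 stretches just above it were 50034, 50234 and 50564 bp long, with LmnA RNAi ratios of 0.75, 0.56 and -0.09. The 3 just below it were 49875, 49765 and 49751 bp long, with ratios of -0.26, 1.02 and -0.16. Without the limit there were 1471 stretches of 113 Mb, so the 939 shorter ones added only 13.5 Mb. Among these, 222 were 25 to 50 kb long, with medians of 0.01 with LmnA RNAi, -1.79 with LmnC RNAi and -1.30 with LmnB1 RNAi.

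The stretches had ratios near 0 with LmnA RNAi and clearly negative ratios in the other maps. The median was 0.26 with LmnA RNAi (interquartile range -0.10 to 0.68, from -2.61 to 2.31), -1.53 with LmnC RNAi (-1.99 to -1.12, from -4.11 to 1.08) and -0.92 with LmnB1 RNAi (-1.29 to -0.56, from -2.83 to 1.26). Chromosome medians had SDs of 0.15, 0.14 and 0.15 over 19 chromosomes. As deposited, the lowest chromosome median with LmnA RNAi (0.06) lay above the highest with LmnB1 RNAi (-0.66). The rule selected for this difference, and the chromosomes of a map are not replicates. Ratios above 0 were found in 357 stretches with LmnA RNAi, 11 with LmnC RNAi and 27 with LmnB1 RNAi. The median autosomal bin of 100 kb was 1.21, 0.06 and 0.53 in these maps, above 0 in each. The counts and the chromosome medians thus hold the offset between maps as well as the selection. The median SE of a stretch was 0.26, 0.26 and 0.24. It was 0.35 with LmnA RNAi for stretches of 50 to 100 kb and 0.12 for those of at least 500 kb, so the long stretches are the best measured. When fragments read in only 1 library were left out, the medians were -0.23, -0.84 and -0.57, and the LmnA RNAi median turned negative while the order of the maps held. Centring each map on its median autosomal bin, which subtracts 1 constant per map, gave -0.95, -1.59 and -1.45, and quantile normalization gave -0.43, -0.83 and -0.95. The LmnA RNAi median was the highest of the 3 under each of these scalings, and the LmnC RNAi median was no longer the lowest under quantile normalization.

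Edges and bridges had like levels with LmnA RNAi, and bridges had lower medians in the other maps. Edges had medians of 0.27, -1.51 and -0.85 with LmnA, LmnC and LmnB1 RNAi, and bridges 0.23, -1.61 and -1.01. The bridge medians had SDs over chromosomes of 0.28, 0.26 and 0.22, where chromosome 19 held 1 bridge and chromosome 17 held 2. These SDs do not measure the error of the gaps between edges and bridges, which were not tested. By length, the LmnA RNAi medians were 0.22 for stretches of 50 to 100 kb, 0.21 for 100 to 200 kb, 0.34 for 200 to 500 kb and 0.29 for at least 500 kb. Without fragments read in only 1 library they were -0.35, -0.23, -0.16 and -0.13, higher in the longer classes.

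The differences between maps were large in nearly all stretches, but much of the genome shifted the same way. The LmnA RNAi ratio exceeded the LmnC RNAi ratio, made with the same fusion, by more than 0.5 in 528 of 532 stretches (99.2%), where 75.8% of 23944 autosomal bins of 100 kb did so. The median difference was 1.82 (interquartile range 1.46 to 2.25), against 0.93 over the bins, and 0.61 against 0.27 without fragments read in only 1 library. It was larger than 2 SE in 508 stretches (95.5%), against 50.3% of bins. With each map centred on its median bin (1.21, 0.06 and 0.53 in the order LmnA, LmnC, LmnB1 RNAi), 327 stretches (61.5%) passed the step of 0.5, against 15.6% of bins. Leaving out fragments read in only 1 library, 351 (66.0%) did, against 22.4% of bins, and after quantile normalization of the maps 256 did, against 19.0% of bins. The count was 415, against 31.3% of bins, without fragments at the constant of their map too (the value of fragments with equal reads, or none, in both libraries). It was 403, against 20.6% of bins, with values capped at 3 around that constant. The rule used this contrast, so nothing is read from these counts beyond their size.

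Against the LmnB1 RNAi map the difference was smaller. The LmnA RNAi ratio was higher by more than 0.5 in 484 stretches (91.0%), against 48.7% of bins, and by more than 2 SE in 425 (79.9%), against 27.1% of bins. The median difference was 1.20, against 0.47 over the bins, and 0.34 against 0.19 without fragments read in only 1 library. After centring 274 stretches (51.5%) passed the step, against 13.7% of bins. Without fragments read in only 1 library 147 (27.6%) did, against 16.7% of bins, and without those at the constant of their map as well 212 did, against 21.5%. With values capped at 3 around the constant 214 passed, against 13.2% of bins, and after quantile normalization 294, against 21.4%. The rule used this contrast too.

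Between the LmnC RNAi and LmnB1 RNAi maps most stretches differed in the same direction as most of the autosomes, but the medians of the maps changed order under quantile normalization, as given above. The LmnC RNAi ratio was lower by more than 0.5 in 317 stretches (59.6%), against 50.5% of bins, and by more than 2 SE in 241 (45.3%), against 27.5% of bins. The median difference was -0.62, against -0.51 over the bins. After centring the count was 127 (23.9%), close to the 24.3% of bins. Without fragments read in only 1 library it was 78 (14.7%), against 10.4% of bins, and without those at the constant too 123, against 16.3%. With capped values it was 49, against 6.39% of bins, and after quantile normalization 56, against 16.9% of bins. In the other direction, the LmnC RNAi ratio was higher by more than 0.5 in 9 stretches (1.69%), against 4.69% of bins. After centring 50 (9.40%) were higher, against 19.6% of bins, and without fragments read in only 1 library 0, against 0.601% of bins.

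**Figure D2:**
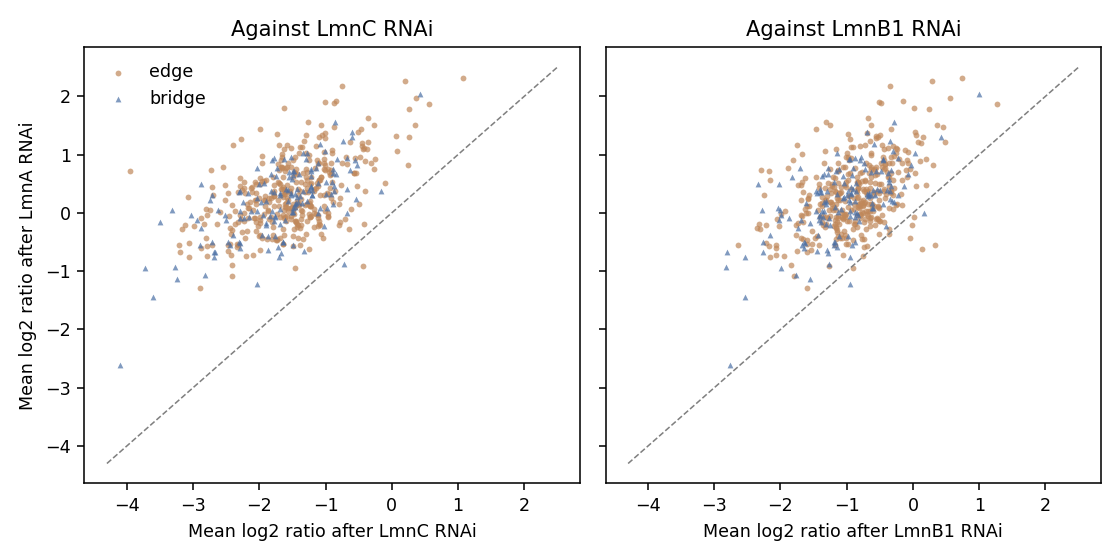
Mean log2 ratio of each of the 532 stretches with LmnA RNAi (vertical axis) against that with LmnC RNAi (left) or LmnB1 RNAi (right), with edges as circles and bridges as triangles. The dashed line marks equal ratios: 530 stretches lie above it on the left and 523 on the right. Most autosomal bins of 100 kb would also lie above it, as the lower quartile of their differences is 0.52 (left) and 0.01 (right). The rule used both contrasts.

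The stretches ranked low in the genome in every map. Their median percentile among the autosomal bins was 37.7 with LmnA RNAi, 33.2 with LmnC RNAi and 31.8 with LmnB1 RNAi. The LmnA RNAi percentile was the highest of the 3 in 393 of 532 stretches, against 35.7% of bins, and the rule selected for this. The distance from the LmnA RNAi map to the others was thus a few percentiles in rank.

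The median stretch lay above the level that separated LAD from non-LAD bins with LmnA RNAi and below it in the other maps. The LAD lists selected for both. That level, the ratio at which as many bins were inside as outside LADs, was -0.22 with LmnA RNAi, -0.72 with LmnC RNAi and -0.15 with LmnB1 RNAi. The median stretch minus this level was 0.47 with LmnA RNAi, -0.81 with LmnC RNAi and -0.77 with LmnB1 RNAi. Above their map's level were 436 stretches with LmnA RNAi (82.0%, against 67.6% of bins), 53 with LmnC RNAi (9.96%, against 58.2%) and 39 with LmnB1 RNAi (7.33%, against 58.4%). LADs held 67.1% of bins with LmnA RNAi, 58.0% with LmnC RNAi and 58.8% with LmnB1 RNAi. With the level of each map set so that the LmnA RNAi share of bins lay above it (-1.55 and -0.85 for the other maps), 271 stretches (50.9%) were above it with LmnC RNAi and 240 (45.1%) with LmnB1 RNAi. This setting was added after the values had been seen. Whether the stretches would stay outside the LADs of the other maps under another LAD caller was not tested.

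Beside their own surroundings the stretches were intermediate in all 3 maps. The parts of the same parents that lay in LADs of all 3 maps (652 parts of at least 50 kb, 466 Mb) had medians of 2.28, 1.33 and 1.59 with LmnA, LmnC and LmnB1 RNAi. Sequence in no LAD of any map had medians of -1.87, -3.08 and -2.17. The 216 LADs of the LmnA RNAi map that overlapped no LAD of another map (57.1 Mb) had medians of 0.18, -1.52 and -0.74, near those of the stretches. All of these classes were selected on the LAD lists, so their levels are a description and nothing is read from them.

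Each extension has an outer border, where the LmnA RNAi LAD ends, and an inner border, where the LAD of another map begins. The signal fell across the outer border in all 3 maps, including those in which the extension was not a LAD. Comparing 50 kb on each side, the median drop was 2.24 with LmnA RNAi, 1.50 with LmnC RNAi and 1.22 with LmnB1 RNAi. The inner side was higher at 380, 355 and 349 of the 382 borders (99.5%, 92.9% and 91.4%). At the other borders of LmnA RNAi LADs that overlapped another map it was higher in 99.7%, 98.5% and 98.1%. The LmnA RNAi border was called on the LmnA RNAi signal. The rule did not ask for a drop in the other maps, but it placed the extension outside their LADs. The drops in those maps are thus not independent of the rule. At the 2531 other borders of LmnA RNAi LADs that overlapped another map, the drops were 2.92, 2.60 and 2.19. Without fragments read in only 1 library the drops were 0.93, 0.76 and 0.62 at the extensions and 1.34, 1.26 and 1.03 at the other borders.

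Over 100 kb on either side the order was the same. The sequence inside the inner border had medians of 1.61, 0.38 and 0.83 with LmnA, LmnC and LmnB1 RNAi, and the sequence beyond the outer border -1.80, -2.98 and -2.11. The inside was higher than the extension in 358, 374 and 379 of 382 cases, and the extension was higher than the outside in 381, 362 and 353. The inside begins with a LAD of another map, and the outside lies in no LmnA RNAi LAD. These counts are thus not independent of the rule, and nothing is read from them beyond their size.

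The extensions of at least 100 kb, 239 in number, were averaged in windows of 10 kb around both borders. Across the outer border the LmnA RNAi mean dropped from 0.76 ± 0.08 to -2.20 ± 0.09 (SE over extensions, within 1 pair of libraries). That border was called on the LmnA RNAi signal, and the next window inward had a mean of 0.45. Without fragments read in only 1 library the LmnA RNAi mean dropped from -0.22 to -1.21. The LmnC RNAi mean dropped from -1.68 to -3.13 and the LmnB1 RNAi mean from -0.92 to -2.26. Across the inner border the means dropped from 1.49 to -0.08 with LmnA RNAi, from 0.16 to -1.92 with LmnC RNAi and from 0.85 to -1.48 with LmnB1 RNAi. The inner drop in the LmnC RNAi and LmnB1 RNAi maps restates the rule, since a LAD of 1 of these maps ends there.

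**Figure D3:**
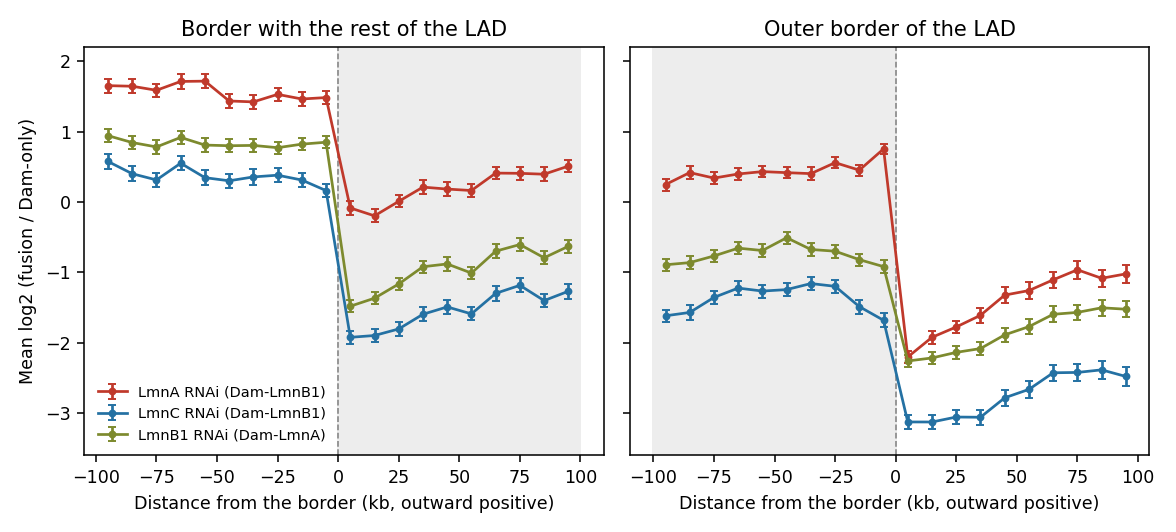
Mean log2 ratio (vertical axis) in 10 kb windows by distance in kb from the inner border (left) and the outer border (right) of the 239 extensions of at least 100 kb, with the extension shaded and error bars of 1 SE over extensions. All 3 maps step down at both borders, and the LmnA RNAi mean falls from 0.76 to -2.20 at the outer one. Without fragments read in only 1 library, which are included here, it falls from -0.22 to -1.21.

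Within an extension the signal did not decline outward. The part next to the rest of the LAD had a lower ratio than the outer part, with a median difference of -0.37 with LmnA RNAi, -0.37 with LmnC RNAi and -0.24 with LmnB1 RNAi when each extension was divided at its midpoint. The inner part was the higher one in 116, 130 and 145 of 382 extensions. The borders were called on these signals, so a low inner part is not independent of the rule. The differences were -0.12, -0.11 and -0.11 when fragments read in only 1 library were left out.

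Bridges showed a shallow floor between higher flanks. Their middle part exceeded the mean of the sides by a median of 0.24 with LmnA RNAi, 0.09 with LmnC RNAi and 0.22 with LmnB1 RNAi. The middle was the lower part in 59, 68 and 61 of the 150 bridges, so no map showed a trough deepening to the centre. A bridge ends where LADs of the LmnC RNAi or LmnB1 RNAi map were called. Low sides and higher flanks are thus not independent of the rule, and the shape was not tested. The profile of the 99 bridges of at least 100 kb had the same shape in the 3 maps.

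**Figure D4:**
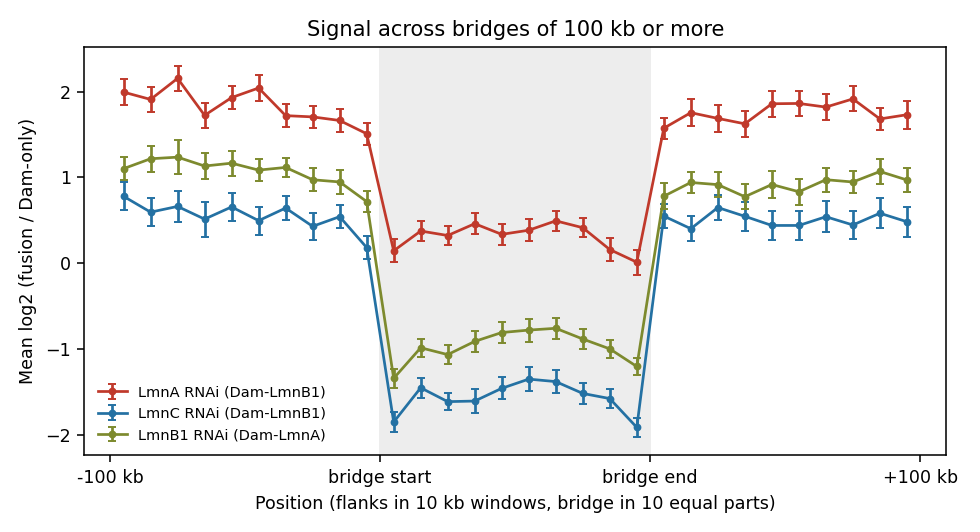
Mean log2 ratio (vertical axis) across the 99 bridges of at least 100 kb, each divided into 10 equal parts (shaded), with flanks of 100 kb in 10 kb windows; error bars are 1 SE over bridges. The 3 maps share a floor between higher flanks, and the LmnA RNAi floor lies highest.

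The LmnC RNAi and LmnB1 RNAi maps often ended at the same place. Of the stretches, 457 (82.4 Mb) had a parent that overlapped LADs of both maps, 37 LADs of the LmnC RNAi map alone and 38 LADs of the LmnB1 RNAi map alone. For the 309 edges of the first kind, the LmnA RNAi LAD reached a median of 137 kb past the LmnC RNAi LAD and 137 kb past the LmnB1 RNAi LAD. The borders of these LADs were within 10 kb of each other in 129 edges (41.7%), with a median distance of 13.5 kb, and more than 100 kb apart in 47. The subtraction of both lists selects for edges where neither map reaches far, so this closeness was not tested.

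Bridges lay in gaps of a median of 183 kb between LmnC RNAi LADs and 201 kb between LmnB1 RNAi LADs. The LmnA RNAi LAD did not close all of these gaps. For a bridge on chromosome 18 in a parent of 1.32 Mb, the nearest LmnB1 RNAi LAD on the right lay 2793 kb away. In 23 of the 150 bridges both maps had LAD borders within 10 kb of the bridge on both sides. A LmnC RNAi LAD touched the bridge on both sides in 41 cases and a LmnB1 RNAi LAD in 47, and in 63 each of these maps touched it on only 1 side. Beyond an extension the next LmnA RNAi LAD was a median of 195 kb away, near the 206 kb of all gaps between autosomal LmnA RNAi LADs. The gaps had medians of 248 kb with LmnC RNAi and 267 kb with LmnB1 RNAi.

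The parents were the longer LADs. Their median length was 1002 kb, against 477 kb for the other LmnA RNAi LADs that overlapped another map. By the rule a parent holds at least 50 kb outside the LADs of the other maps, so its length is not independent of the selection. The length of LADs was not held equal in this comparison. The 436 parents were 29.8% of the 1464 such LADs. Of the parents, 354 held 1 stretch, 82 held more and 13 held at least 3. The LmnA RNAi LAD was extended at both ends in 41 parents, and 39 held an edge and a bridge. The stretches made up a median of 17.0% of a parent and more than 50% of 53 parents.

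The longest extension lay on chromosome 3 from 38798830 to 40655231 (1856 kb) and made up 85.9% of its parent LAD. Its ratio was 0.26 ± 0.07 with LmnA RNAi, -1.58 ± 0.07 with LmnC RNAi and -0.42 ± 0.07 with LmnB1 RNAi, over 4548 fragments. The rest of the parent was a LmnB1 RNAi LAD, and the nearest LmnC RNAi LAD lay 915 kb beyond the inner border. Without fragments read in only 1 library the ratios were -0.12, -0.88 and -0.35, in the same order of maps.

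Other long extensions had the same order of maps. That on chromosome 17 from 8021536 to 9077853 (1056 kb) had ratios of -0.02 ± 0.09 with LmnA RNAi, -1.48 ± 0.10 with LmnC RNAi and -1.04 ± 0.09 with LmnB1 RNAi. That on chromosome 12 from 54756431 to 55790058 (1034 kb) had 0.12 ± 0.09, -1.92 ± 0.09 and -1.37 ± 0.08. Its parent, from 54015445 to 55790058, was extended at both ends, and the extensions made up 87.2% of it. On chromosome 15, the extension from 34479717 to 35362176 (882 kb) had 0.54 ± 0.10, -1.93 ± 0.12 and -0.73 ± 0.10. That on chromosome 11 from 64758815 to 65525520 (767 kb) had the highest LmnA RNAi ratio of the 8 longest extensions with at least 90% of their length in fragments, 1.13 ± 0.10, with -1.39 ± 0.10 with LmnC RNAi and -0.91 ± 0.09 with LmnB1 RNAi. It also remained above 0 without fragments read in only 1 library, at 0.36. On chromosome 2, that from 28691042 to 29384095 (693 kb) had the lowest LmnA RNAi ratio of the same 8, -0.15 ± 0.11, with -1.28 ± 0.10 and -0.97 ± 0.10 in the other maps. An extension of 809.7 kb on chromosome 1 from 184866558 to 185676223 had fragments over only 49.3% of its length, with ratios of -0.31 ± 0.16, -2.19 ± 0.19 and -1.04 ± 0.15. In each of these extensions the LmnA RNAi value lay above both others by more than their SEs.

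The longest bridge lay on chromosome 1 from 166678787 to 167595212 (916 kb). Its ratio was -0.13 ± 0.10 with LmnA RNAi, -1.77 ± 0.11 with LmnC RNAi and -0.81 ± 0.09 with LmnB1 RNAi. LmnC RNAi LADs touched it on both sides, and the LmnB1 RNAi LADs began 8.08 and 128 kb away. On chromosome 13 from 25647018 to 26530219 (883 kb) a bridge had ratios of 0.40 ± 0.10, -1.56 ± 0.11 and -0.61 ± 0.10, with a LAD of 1 other map touching each end and one of the remaining map within 11.8 kb of it. A bridge on chromosome 5 from 44928597 to 45693892 (765 kb) had 0.25 ± 0.11, -2.03 ± 0.12 and -1.06 ± 0.10. A bridge on chromosome 19 from 31351834 to 31852473 (501 kb) had the highest LmnA RNAi ratio of the 8 longest bridges with that coverage, 0.96 ± 0.15, with -1.52 ± 0.13 and -0.79 ± 0.13. The LmnA RNAi value was the highest of the 3 maps in each of these bridges.

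**Figure D5:**
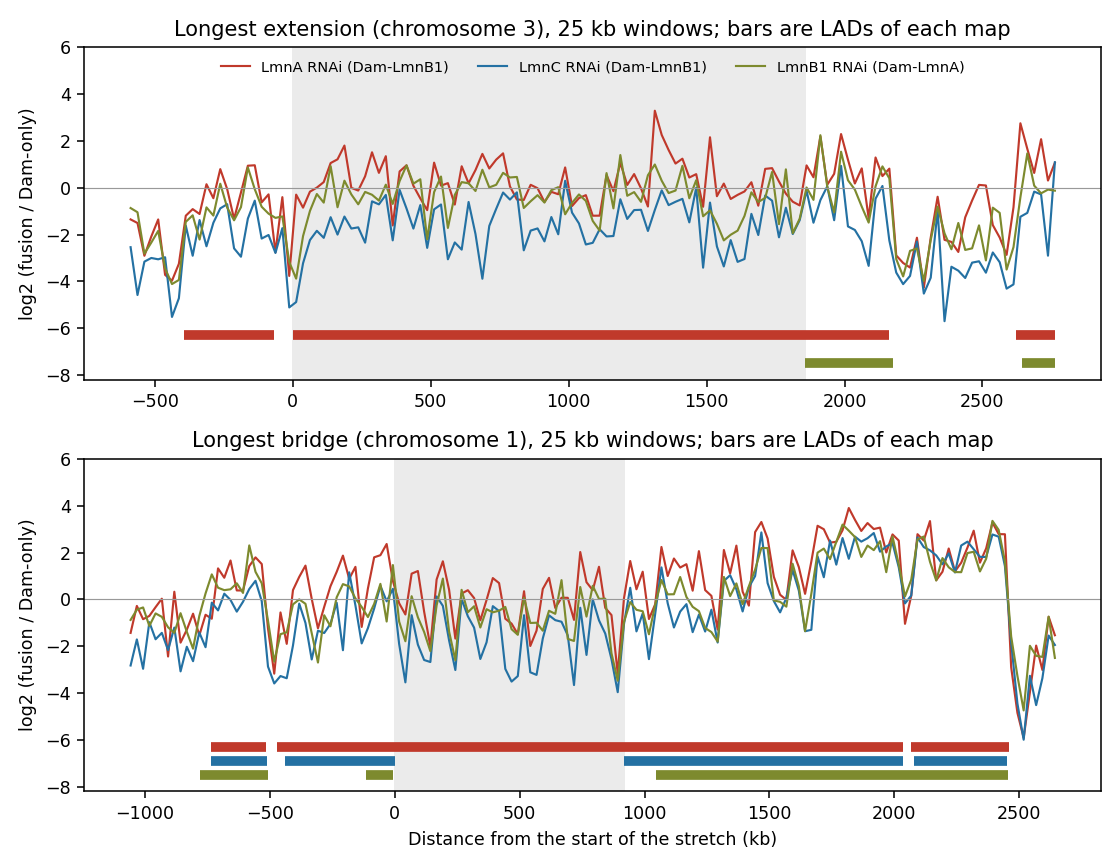
Log2 ratio (vertical axis) in 25 kb windows across the longest extension, on chromosome 3, and the longest bridge, on chromosome 1, by distance in kb from the start of the stretch, which is shaded; bars beneath are the LADs of each map in its colour. Over the extension the LmnA RNAi mean is 0.26 and the LmnC RNAi mean -1.58, and over the bridge they are -0.13 and -1.77.

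Among stretches of at least 100 kb, a few had LAD-like signal in every map. The extension on chromosome 8 from 116030988 to 116155220 had the highest LmnA RNAi ratio, 2.31 ± 0.31, with 1.08 ± 0.27 with LmnC RNAi and 0.74 ± 0.24 with LmnB1 RNAi. It lay outside the LADs of the other maps although both ratios were above their maps' LAD levels. The bridge with the highest LmnA RNAi ratio, on chromosome 9 from 4284990 to 4396184, had 2.04 ± 0.35, 0.43 ± 0.32 and 1.00 ± 0.32, also above those levels. The extension on chromosome 2 from 76898623 to 77006336 differed from these, with 2.18 ± 0.30 with LmnA RNAi, -0.75 ± 0.23 with LmnC RNAi and -0.35 ± 0.26 with LmnB1 RNAi.

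At the low end, the extension on chromosome 12 from 4882272 to 5002756 had ratios of -0.74 ± 0.28, -2.79 ± 0.30 and -1.95 ± 0.30. The bridge on chromosome 10 from 62719474 to 62850796 had -0.69 ± 0.30, -1.67 ± 0.34 and -1.28 ± 0.29. These were below the LAD level of every map although the stretches belonged to LmnA RNAi LADs.

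The largest difference between the LmnA RNAi and LmnC RNAi maps among stretches of at least 100 kb was 3.56, in an extension on chromosome 13 from 90462560 to 90600183. It had ratios of 1.16 ± 0.30, -2.40 ± 0.35 and -0.47 ± 0.29 with LmnA, LmnC and LmnB1 RNAi, and also the lowest LmnC RNAi ratio relative to LmnB1 RNAi, by -1.92. Without fragments read in only 1 library its ratios were -0.10, -0.94 and -0.54, so the difference was smaller without them. A bridge on chromosome 7 from 66478648 to 66582344 differed by 3.37, with 0.04 ± 0.25, -3.32 ± 0.45 and -2.28 ± 0.37.

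The 4 stretches that did not pass the step of 0.5 over the LmnC RNAi map lay on chromosomes 6, 7, 10 and 17. On chromosome 6 the extension from 48342735 to 48452291 had a lower LmnA RNAi than LmnC RNAi ratio, -0.91 ± 0.43 against -0.43 ± 0.46, with -1.27 ± 0.28 with LmnB1 RNAi. The bridge on chromosome 7 from 6310043 to 6370773 had -0.89 ± 0.48, -0.71 ± 0.37 and -1.26 ± 0.37. The extension on chromosome 10 from 61724543 to 61871703 had -0.19 ± 0.30, -0.43 ± 0.30 and -1.12 ± 0.24, and that on chromosome 17 from 32533925 to 32675920 had -0.28 ± 0.25, -0.64 ± 0.27 and -0.36 ± 0.21. In all 4 the LmnA RNAi and LmnC RNAi values differed by less than 2 SE of their difference. Without fragments read in only 1 library the bridge on chromosome 7 had -0.57, -0.64 and -0.44. The extension on chromosome 10 then had -0.65, -0.53 and -0.39, and that on chromosome 17 had -0.24, -0.27 and -0.32. The order of maps changed in these, and held only on chromosome 6, at -0.50, -0.43 and -0.67. The extension on chromosome 2 from 12888251 to 13146588 was among the 9 with a LmnC RNAi ratio more than 0.5 above the LmnB1 RNAi ratio, at 0.90 ± 0.22, -1.13 ± 0.16 and -1.81 ± 0.19. Leaving out fragments read in only 1 library, its LmnC RNAi and LmnB1 RNAi ratios were -0.76 and -0.81.

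Several parents held more than 1 stretch. The LAD on chromosome 16 from 59640858 to 65813146 (6.17 Mb) held 4 bridges of 1072 kb in all, which was 17.4% of it. The LAD on chromosome 5 from 44217885 to 47675821 held 1 edge and 2 bridges (932 kb), and that on chromosome 12 from 34078875 to 35883406 held 2 edges and 1 bridge (799 kb, 44.3% of the LAD).

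Every autosome held such stretches. They covered 4.19% of the autosomal fragment length and 6.15% of the LmnA RNAi LADs, with a mean of 4.23% and an SD of 1.11 over 19 chromosomes. The share was lowest on chromosome 7 (1.90%) and highest on chromosomes 13 (6.22%), 10 (6.15%) and 12 (6.09%). Most sequence lay on chromosome 1 (44 stretches, 9.53 Mb), chromosome 10 (42, 7.74 Mb) and chromosome 3 (33, 7.35 Mb, with the longest extension). Of the stretches, 256 (48.1%) had another within 1 Mb.

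The density of GATC fragments is a sequence property that the rule does not name, and whether the LAD caller depends on it is not given in the sources used here. It was 2.42 fragments per kb in the stretches (SD 0.05 over 19 chromosomes), 2.57 (SD 0.04) in the parts of the same parents that lay in LADs of all 3 maps and 2.41 (SD 0.03) in sequence in no LAD. The stretches lay below those parts on 18 of 19 chromosomes and below the sequence in no LAD on 12. Isolated LADs of the LmnA RNAi map had 2.47 (SD 0.06). In density the stretches were closer to sequence outside LADs than to the parts in LADs of all 3 maps.

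The same rule applied to the other maps found far fewer stretches. The LmnC RNAi map had 73 (6.82 Mb, 48 edges and 25 bridges) and the LmnB1 RNAi map 104 (10.1 Mb, 64 edges and 40 bridges). They made up 0.487% and 0.717% of the autosomal LADs of their own maps, against 6.15% with LmnA RNAi. The LmnC RNAi stretches had medians of -0.45, -0.83 and -0.89 with LmnA, LmnC and LmnB1 RNAi. These medians are as deposited, and the order of the maps in them depends on the offset between maps. The LmnB1 RNAi stretches had -0.65, -1.52 and -0.44. The 3 lists differ in the share of the genome they hold, and its part in these counts was not tested.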

How the data were processed

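DamID maps of 3 groups of MEFs were analysed, each from 1 Dam-only and 1 fusion library. Reads were aligned with Bowtie to mm9, per the submitters' processing notes, which give no version. The authors deposited log2 values, 1 per GATC fragment. Their steps fit the ratio of fusion to Dam-only reads, each plus 1e-05, shifted by a constant of the map (-0.34 for LmnA RNAi, 0.21 for LmnC RNAi, -0.15 for LmnB1 RNAi). A size above 12 was read as 0 reads in 1 library. The deposited LAD lists hold a start and an end per LAD, with how they were called not given in the sources used here. Library depth is unknown, since the authors deposited ratios.

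Signal was averaged by fragment length, with fragments assigned by their midpoint. The background was all autosomal bins of 100 kb with at least 50% of their length in fragments (23944 bins). A difference counted from 0.5, with 2 SE over fragments as a second rule. No test across samples was made, as each group held 1 library. Flanks of up to 100 kb needed at least 20 fragments. Gaps between fragments of at least 10 kb were read as assembly gaps. Coordinates count from 1.

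The rule, the stretches and the settings were chosen with earlier results of these data known. Regions were named by a written rule: the longest edges and bridges (8 each) covered over at least 90%, the highest and lowest LmnA RNAi ratios and the largest and smallest differences among those of at least 100 kb, the parents with most stretch length and most stretches, and those next to the 50 kb limit. The 4 stretches under the step of 0.5, and 1 long extension on chromosome 1 with lower coverage, were named after their values had been seen. The text gives examples of each. Python 3.11.15, numpy 2.4.6, pandas 2.3.3 and scipy 1.17.1 were used. The subtraction was tested on simulated LAD lists, where it recovered 243 of 243 stretches with 0 extra.

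Alternatives changed the fragments used, their weight, a cap on values, the offset between maps, the minimum length, assembly gaps, the overlap asked of the parent, the lists subtracted and their width. Genes and sequences are not given, because the annotation used here is of another build.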

Additional observations from a re-analysis of the deposited data

How the results depend on the processing

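Over 119 alternative values in 13 settings, 5 reversed in sign, 39 moved and 75 changed less, meaning by under 1 SD over chromosomes for a ratio or density, within the interval for the bridge share, and by up to 1.5 times for a count or length. The cause was not tested, except that centring shifts each map by 1 constant. The LmnA RNAi median of 0.26 reversed to -0.23 without fragments read in only 1 library (LmnC RNAi -0.84, LmnB1 RNAi -0.57), to -0.22 without those at the constant as well (-0.96 and -0.63), to -0.16 with values capped (-0.84 and -0.59), to -0.95 with centred maps (LmnB1 RNAi -1.45) and to -0.43 with quantile normalization (LmnC RNAi -0.83). Equal weight for every fragment gave 0.89, -1.92 and -1.37. The count of stretches with a higher LmnA than LmnC RNAi ratio moved from 528 to 351 without fragments read in only 1 library, 327 with centring and 256 with quantile normalization, and was 415 without fragments at the constant too and 403 with the cap. The count over LmnB1 RNAi moved from 484 to 147, 274 and 294 in these settings, to 212 without fragments at the constant too, and to 214 with the cap. The count with a lower LmnC than LmnB1 RNAi ratio moved from 317 to 78, 127 and 56, and to 123 and 49. The inner minus outer part of extensions moved from -0.37 to -0.12, to -0.14 without fragments at the constant too, and to -0.74 with equal weights. The number of stretches was 765 (146 Mb) with only the LmnC RNAi LADs subtracted and 754 with a minimum of 25 kb. A minimum of 100 kb left 338 stretches, with counts of 335, 312 and 208. The bridge share was 32.4% where parents overlapped both maps. With only the LmnC RNAi LADs subtracted it was 32.5%, with medians of 0.45, -1.30 and -0.51 and 551 stretches lower after LmnC than LmnB1 RNAi. The level setting added after seeing the data moved 53 stretches to 271 after LmnC RNAi and 39 to 240 after LmnB1 RNAi. No paired analysis was possible because each map has only 1 Dam-only and 1 fusion library and the labels number no replicates, so none could be left out either. The precision rests on the fragments per stretch, since the reads behind each ratio are unknown.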

Other observations

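On the X chromosome, outside the rule, the LmnA RNAi map held 28 such stretches (5.55 Mb, 21 edges and 7 bridges). They made up 4.08% of its LADs there, and the longest was 928 kb. Their medians were 0.40 with LmnA RNAi, -2.11 with LmnC RNAi and -0.66 with LmnB1 RNAi. Their medians without fragments read in only 1 library were -0.22, -0.64 and -0.38, in the same order of maps. The same rule found 1 stretch on X for the LmnC RNAi map and 6 for the LmnB1 RNAi map.

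The spacing of the autosomal stretches varied widely. Neighbouring stretches on a chromosome were a median of 2.56 Mb apart, and the closest pair was separated by 25.9 kb.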
